A study of Mus musculus with 22 samples.

Results

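The mRNAs of 9 transcription factors, among the 29848 gene symbols listed in the deposited tables, were followed through ribosome pulldowns from mouse hippocampus. They are the pyramidal neuron factors Neurod2, Neurod6, Zfp238, Bcl11b, Mef2c and Tbr1 and the nuclear factor I (NFI) genes Nfia, Nfib and Nfix, each matched by its symbol. The list was drawn up with the FPKM of these libraries and their dendrite against soma differences known, so the members count as chosen by those values, and their levels and differences are given as a description.

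All mice were Camk2a-tTA/tetO-EGFP-L10a double transgenics on C57BL/6, in which the Camk2a promoter, active in excitatory forebrain neurons, drives a tetracycline transactivator that switches on a GFP-tagged ribosomal protein. Dendrites and soma of CA1 were dissected from fear conditioned and home cage mice, and tagged ribosomes were pulled down with the HtzGFP-19C8 antibody. There were 8 immunoprecipitates: 2 fear conditioned dendrite, 2 home cage dendrite, 2 fear conditioned soma and 2 home cage soma libraries. The 3 supernatants, the material left after the pulldown, came from fear conditioned dendrite, home cage dendrite and fear conditioned soma, 1 library each. Each of the 11 libraries is listed as a paired-end and a single-end sample, 22 samples in all, and the 2 runs of a library were counted as 1 replicate. No age is given, and nothing says that the libraries came from separate animals or whether animals were pooled, so p-values measure only the spread between these libraries.

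A transcription factor acts in the nucleus, but its mRNA is translated in the cytoplasm, where it may be held in the cell body or carried into the dendrite. Neurod2 and Neurod6 are basic helix-loop-helix (bHLH) factors of postmitotic excitatory neurons, and Zfp238, now named Zbtb18, is a zinc finger repressor needed for pyramidal neurons to form in cortex and hippocampus. NFI proteins bind DNA as dimers, act in hippocampal development and in the birth of astrocytes, and stay expressed in both neurons and glia.

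The NFI genes are close paralogs, so their coding sequences are shown where they are most alike. Capitals mark the longest run of bases shared by each pair, and the lower case bases beside it are each gene's own coding sequence from GENCODE M21 (GRCm38).
Nfia, against Nfib: cagacACAGTCCTGGTACCTGGGa
Nfib, against Nfia: cagcaACAGTCCTGGTACCTGGGc
Nfia, against Nfix: tctgtCTCACCCAGGATGAGTTtcatc
Nfix, against Nfia: actgcCTCACCCAGGATGAGTTccacc
Nfib, against Nfix: cgaaATCAAGCAGAAGTGGGCATCCaggc
Nfix, against Nfib: tgagATCAAGCAGAAGTGGGCATCCcggc
The longest shared run was 18 bases between Nfia and Nfib, 17 between Nfia and Nfix and 21 between Nfib and Nfix. It was 11 bases between Neurod2 and Neurod6. Within the coding sequence, a read longer than such a run differs between the paired genes by at least 1 base. The untranslated regions (UTRs) were not compared. Nfix and Nfic shared a longer run of 32 bases and Mef2c and Mef2d one of 28. No source used here gives the read length.

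On mm9, the build of the files, Nfia lies on chromosome 4 (97248634 to 97785567, plus strand), Nfib on chromosome 4 (81936077 to 82151212, minus strand) and Nfix on chromosome 8 (87231498 to 87324239, minus strand). Neurod2 lies on chromosome 11 (98186731 to 98190959, minus strand), Neurod6 on chromosome 6 (55627813 to 55631257, minus strand) and Zfp238 on chromosome 1 (179372538 to 179380897, plus strand). Bcl11b lies on chromosome 12 (109148613 to 109241624, minus strand), Mef2c on chromosome 13 (83643033 to 83806684, plus strand) and Tbr1 on chromosome 2 (61642510 to 61652170, plus strand). The authors measured each gene in 2 parts, a coding part that takes in the 5′ UTR, the CDS and the beginning of the 3′ UTR, and what remains of the 3′ UTR. The unit is FPKM, a fragment count scaled to the length of the part and to the library's size. Values below are FPKM of the coding part from the paired-end run as deposited, unless another part, run or scale is named.

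Depth was estimated from the spacing of low values, at 5.71 to 35.2 M fragments in paired-end and 0.513 to 10.6 M reads in single-end libraries. In home cage soma immunoprecipitate 2, Rpsa took 74.0% of all FPKM. Fear conditioned dendrite immunoprecipitate 1 correlated with the home cage dendrite supernatant at r = 0.757 over 16618 genes, against at most 0.634 for any other immunoprecipitate with a supernatant, although in the single-end run that r was 0.485 and another immunoprecipitate reached 0.647. The members were sparse: 79 of 99 member by library values were above 0 in paired-end and 75 in single-end libraries. At this depth a value of 0 limits detection and does not show absence. Of 10 CA1 pyramidal markers, of which Neurod6 is one, 9 were above 0 in at least 1 dendrite and 10 in at least 1 soma immunoprecipitate. By the same measure 10 of 10 astrocyte, 7 of 7 oligodendrocyte, 7 of 7 microglia and 10 of 11 interneuron markers were above 0 in dendrite. In soma these counts were 10, 5, 3 and 7, so the measure does not set pyramidal neurons apart.

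Among the NFI genes, Nfia had 7.37 and 18.8 FPKM in fear conditioned and 0.791 and 4.49 FPKM in home cage dendrite immunoprecipitates, against 0.178 and 2.25 FPKM in fear conditioned and 0.865 and 0 FPKM in home cage soma immunoprecipitates. Of the 4 dendrite libraries, 3 stood above every soma library, while home cage dendrite immunoprecipitate 1 lay within the soma range. After scaling of the libraries to a common level (median ratio), Nfia averaged 4.47 ± 4.05 in dendrite and 0.724 ± 0.762 scaled FPKM in soma immunoprecipitates (SD, n = 4 each). Whether fewer cells of a type or less RNA per cell lies behind a low value cannot be told apart in such bulk samples. Nfix had 3.70 and 86.4 FPKM in fear conditioned and 15.4 and 23.7 FPKM in home cage dendrite immunoprecipitates, against 5.10 and 2.14 FPKM in fear conditioned and 0 in both home cage soma immunoprecipitates. The highest Nfix value, in fear conditioned dendrite immunoprecipitate 2, was 59.2% of the Nfix sum over 11 libraries, and the dendrite and soma ranges overlapped at the low end of dendrite. Nfib was low in both places, at 2.88 and 0.401 FPKM in fear conditioned and 0 and 0.230 FPKM in home cage dendrite immunoprecipitates, against 0.635 and 1.49 FPKM in fear conditioned and 0 in both home cage soma immunoprecipitates. Its dendrite and soma ranges overlapped, with the highest value in dendrite.

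Among the pyramidal neuron factors, Zfp238 had 2.01 and 0.141 FPKM in fear conditioned and 0.0561 and 0.803 FPKM in home cage dendrite immunoprecipitates, against 11.6 and 51.0 FPKM in fear conditioned and 0.0770 and 11.8 FPKM in home cage soma immunoprecipitates. Of the 4 soma libraries, 3 stood above every dendrite library, and home cage soma immunoprecipitate 1 was as low as the lowest dendrite libraries. On the scaled level, Zfp238 averaged 0.417 ± 0.416 in dendrite and 20.7 ± 19.99 in soma immunoprecipitates (SD, n = 4 each). Neurod6 had 1.72 and 0.112 FPKM in fear conditioned and 0 in both home cage dendrite immunoprecipitates, against 10.2 and 103 FPKM in fear conditioned and 0.252 and 1.38 FPKM in home cage soma immunoprecipitates. Fear conditioned soma immunoprecipitate 2 alone made up 85.3% of the Neurod6 sum over all 11 libraries, and the highest dendrite value lay above the home cage soma values. Neurod2 reached 0.159 FPKM in fear conditioned dendrite immunoprecipitate 1 and 0 in the other dendrite immunoprecipitates, against 0.456 and 0.358 FPKM in fear conditioned and 1.13 and 0 FPKM in home cage soma immunoprecipitates. In paired-end data its coding part was thus above 0 in 1 dendrite and 3 soma immunoprecipitates, at levels near the limit of these libraries.

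The other pyramidal neuron factors were less regular. Bcl11b, a zinc finger factor of projection neurons that also marks hippocampal neurons, had 0.190 and 6.50 FPKM in fear conditioned and 0 and 8.18 FPKM in home cage dendrite immunoprecipitates, against 0.845 and 0.782 FPKM in fear conditioned and 0 in both home cage soma immunoprecipitates. The number 2 dendrite libraries were high and the number 1 dendrite libraries low. Mef2c, an activity-regulated MADS-box factor that limits the number of excitatory synapses, had 4.48 and 17.9 FPKM in fear conditioned and 0 and 0.0302 FPKM in home cage dendrite immunoprecipitates, against 0.215 and 17.7 FPKM in fear conditioned and 0.0767 and 4.74 FPKM in home cage soma immunoprecipitates. Both places held high and low libraries. Tbr1, a T-box factor of early-born cortical neurons, had 0.168 and 0 FPKM in fear conditioned and 0 and 2.02 FPKM in home cage dendrite immunoprecipitates, against 1.33 and 0.737 FPKM in fear conditioned and 2.53 and 0 FPKM in home cage soma immunoprecipitates. No member kept its dendrite and soma libraries apart.

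**Figure D1:**
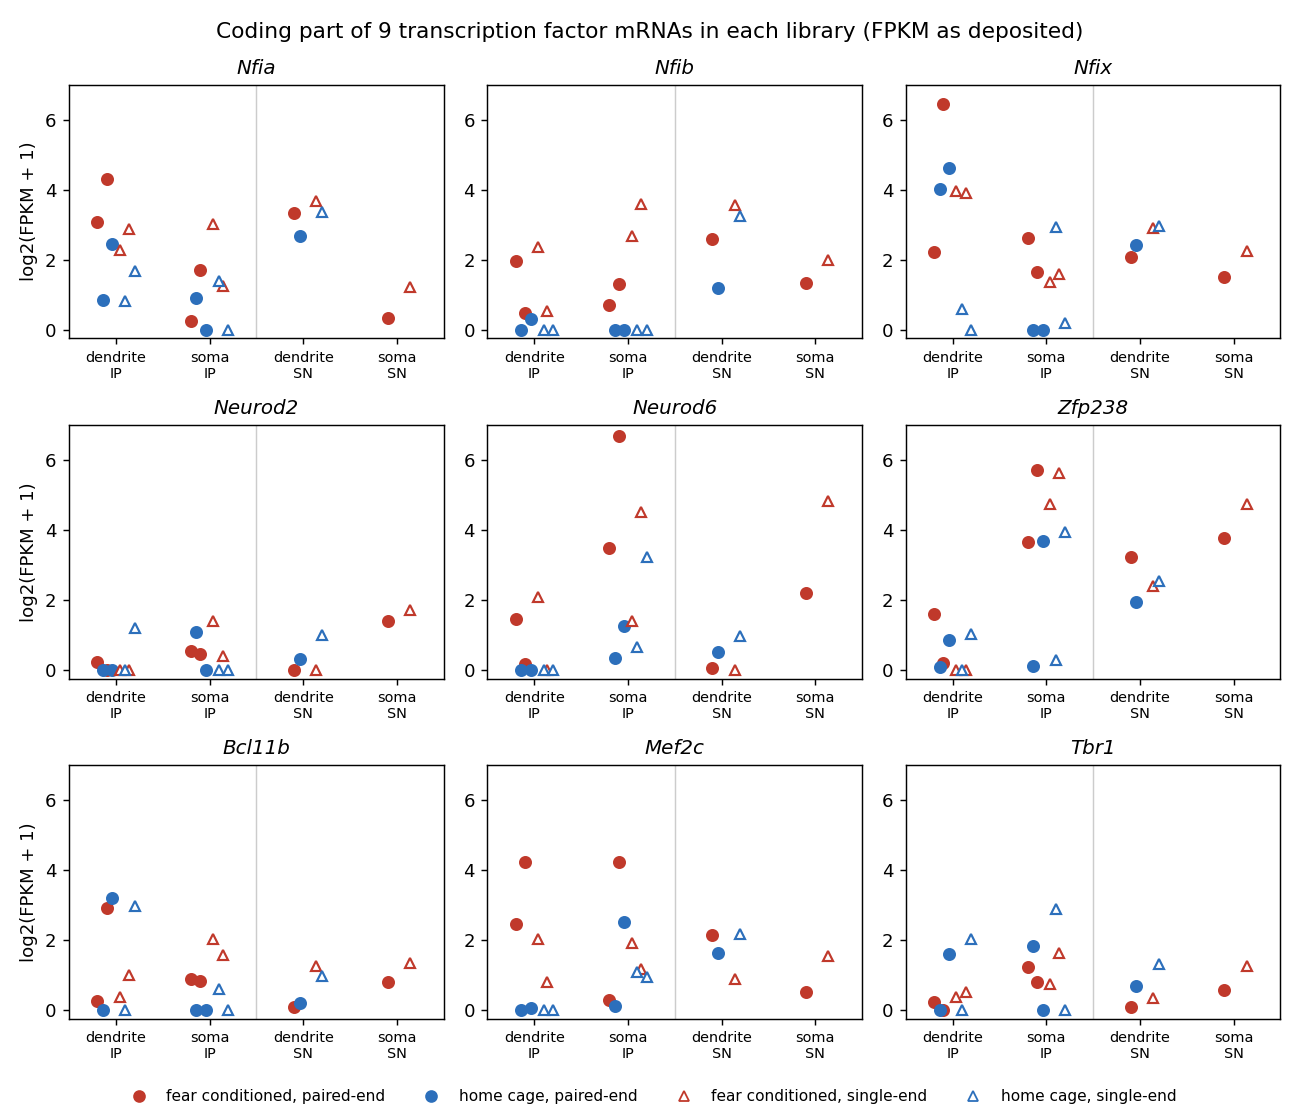
Level of the coding part of each member, log2(FPKM + 1) as deposited, in each library; columns are dendrite and soma immunoprecipitates (IP), then dendrite and soma supernatants (SN), filled circles are paired-end and open triangles single-end values, red fear conditioned and blue home cage. The paired-end values of Nfia and Nfix lie higher in dendrite immunoprecipitates, Zfp238 and Neurod6 lie higher in soma, and every member overlaps between dendrite and soma immunoprecipitates.

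Dendrite was compared with soma over the 8 immunoprecipitates with limma on log2(scaled FPKM + 1), and p-values were adjusted by the Benjamini-Hochberg method over the 2928 genes whose scaled FPKM averaged 1 or more. Of the members, 6 passed that minimum, and Neurod2, Tbr1 and Nfib did not. No gene of the 2928 was called at an adjusted p under 0.05 (0% called), 139 genes had an unadjusted p under 0.05, and no member was called. Zfp238 was lower by a log2 difference of -3.02 (SE 1.18) and Neurod6 by -2.82 (SE 0.96), dendrite minus soma, both at a limma adjusted p of 0.650. Nfix was higher by 2.95 (SE 1.11) and Nfia by 1.47 (SE 0.86), again at an adjusted p of 0.650. For Bcl11b the difference was 1.00 (SE 0.87, adjusted p = 0.650) and for Mef2c -0.78 (SE 1.13, adjusted p = 0.727), each near or under the size of its SE. Both tested NFI genes had positive differences and 3 of the 4 tested pyramidal neuron factors had negative ones, beside a median of -0.30 over all genes tested, of which 42.6% were positive. That median moved with the scaling and was 0.12 with FPKM as deposited. The share of genes without overlap between dendrite and soma immunoprecipitates was 1.71% for higher and 1.74% for lower, and no member was among them.

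These differences rested on few libraries. Nfix was 1.86 without fear conditioned dendrite immunoprecipitate 2 and 3.89 without fear conditioned dendrite immunoprecipitate 1, the library that in paired-end data correlated most with a supernatant. Zfp238 was -1.76 without home cage soma immunoprecipitate 2, the library led by Rpsa, and -4.48 without home cage soma immunoprecipitate 1. Neurod6 was -2.09 without fear conditioned soma immunoprecipitate 2. Nfia lay between 1.08 and 1.91 with any 1 library left out. Among the 6, Mef2c changed sign, to 0.06 without fear conditioned soma immunoprecipitate 2 and to 0.29 without home cage soma immunoprecipitate 2. Bcl11b was under the expression minimum without home cage dendrite immunoprecipitate 2.

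In the single-end run Zfp238 and Neurod6 kept differences of that size, those of Nfia and Nfix were smaller, and Nfib, which passed the minimum there, was negative. Zfp238 was at -3.56 and Neurod6 at -2.24 in single-end libraries, whereas Nfix was at 0.39 (SE 0.94), Nfia at 0.39 (SE 0.90) and Bcl11b at 0.03 (SE 0.84). Single-end Nfib was 4.19 and 0.448 FPKM in fear conditioned and 0 in both home cage dendrite immunoprecipitates, against 5.45 and 11.1 FPKM in fear conditioned and 0 in both home cage soma immunoprecipitates, with a difference of -0.68 (SE 0.77, adjusted p = 0.690). Single-end Tbr1, which also passed, was at -0.66 (SE 0.91, adjusted p = 0.735). Paired-end and single-end levels of a member, as log2(scaled FPKM + 1), were correlated over the 11 libraries. The r was 0.960 for Zfp238, 0.951 for Tbr1, 0.799 for Nfib, 0.745 for Neurod6 and Bcl11b and 0.654 for Nfia. It was 0.387 for Neurod2, 0.319 for Mef2c and -0.05 for Nfix. Single-end Nfix was 14.7 and 14.1 FPKM in fear conditioned and 0.492 and 0 FPKM in home cage dendrite immunoprecipitates, against 1.59 and 2.01 FPKM in fear conditioned and 6.59 and 0.137 FPKM in home cage soma immunoprecipitates. Fear conditioned dendrite immunoprecipitate 2 was thus high in both runs, number 1 in single-end data, and the home cage dendrite libraries in paired-end data. For the rest of the 3′ UTR of Nfix, a separate measurement on the same libraries, the dendrite minus soma difference was 1.45 (SE 0.94, adjusted p = 0.616).

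**Figure D2:**
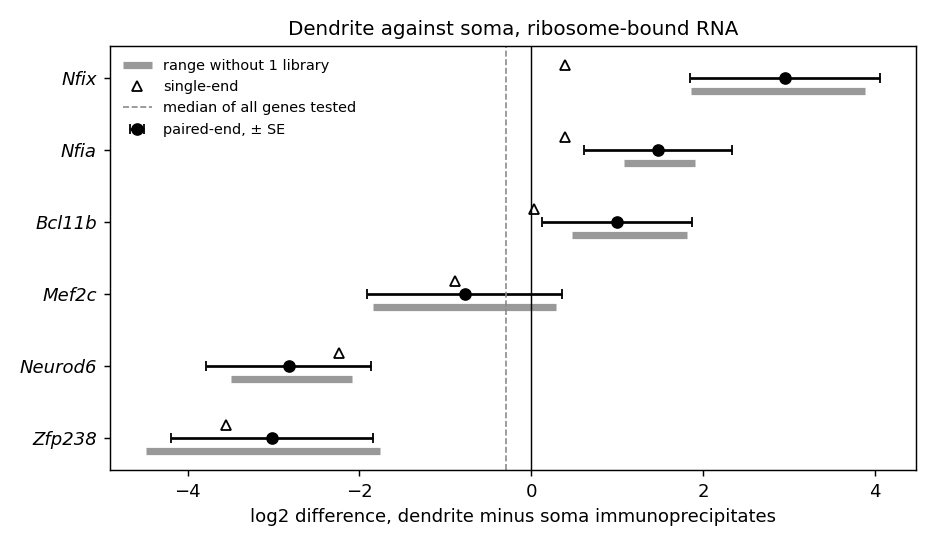
Dendrite minus soma difference, log2 scale, of the 6 members that passed the expression minimum; black circles with bars are the paired-end estimate ± SE, grey bars the range with 1 library left out, open triangles the single-end estimate, and the dashed line the median of all genes tested. Zfp238 and Neurod6 lie at -1.76 or lower in every estimate and range, and the single-end triangles of Nfix and Nfia lie at 0.39.

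The supernatant values were also known when the list was drawn up. As deposited, both dendrite supernatants lay on the same side of the single soma supernatant in both runs for Nfia, Nfix, Neurod2, Neurod6, Zfp238 and Bcl11b. Such an order is common with 1 soma library. In scaled paired-end data both dendrite supernatants were higher for 33% and lower for 38.5% of all genes tested. The share over all genes for deposited values in both runs was not counted. Nfia had 9.04 FPKM in the fear conditioned and 5.37 FPKM in the home cage dendrite supernatant, against 0.250 FPKM in the soma supernatant, and in single-end data 11.9 and 9.32 FPKM in the dendrite supernatants against 1.34 FPKM in the soma supernatant. Neurod6 had 0.0386 and 0.410 FPKM in the fear conditioned and home cage dendrite supernatants, against 3.61 FPKM in the soma supernatant, and in single-end data 0 and 0.958 FPKM against 27.3 FPKM. Zfp238 had 8.30 and 2.87 FPKM in the fear conditioned and home cage dendrite supernatants, against 12.5 FPKM in the soma supernatant, and in single-end data 4.29 and 4.83 FPKM against 25.9 FPKM. Nfix had 3.24 and 4.31 FPKM in the fear conditioned and home cage dendrite supernatants, against 1.85 FPKM in the soma supernatant, and in single-end data 6.52 and 6.75 FPKM against 3.75 FPKM. Neurod2 had 0 and 0.228 FPKM in the fear conditioned and home cage dendrite supernatants, against 1.61 FPKM in the soma supernatant, and in single-end data 0 and 0.997 FPKM against 2.30 FPKM. As deposited, dendrite was thus above soma for Nfia and Nfix and below it for Neurod2, Neurod6, Zfp238 and Bcl11b. After scaling, single-end Nfix was about level, at 3.74 and 3.68 in the dendrite supernatants against 3.79 scaled FPKM in soma.

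With 1 soma supernatant, the spread was shared over all 11 libraries in a limma fit with behaviour as a covariate, in which 0 of 2938 genes were called between dendrite and soma supernatants (0% called, 31 at an unadjusted p under 0.05). In that fit the log2 difference was 2.59 for Nfia (SE 1.42, adjusted p = 1), -1.55 for Neurod6 (SE 1.60, adjusted p = 1) and -1.33 for Zfp238 (SE 1.97, adjusted p = 1). On the scale of scaled FPKM + 1, past a 2-fold difference from soma in both dendrite supernatants, Nfia was among the higher genes (6.36% of all) and Neurod6 and Zfp238 among the lower ones (8.78% of all). All 6 members tested had dendrite supernatants on one side of the single soma library, which 33% of all genes did as higher and 38.5% as lower. Of the remaining members, Mef2c stood at 3.45 and 2.12 FPKM in the fear conditioned and home cage dendrite supernatants against 0.417 FPKM in soma, and Nfib at 5.04 and 1.29 against 1.54 FPKM. Bcl11b stood at 0.0651 and 0.143 FPKM in the fear conditioned and home cage dendrite supernatants against 0.754 FPKM in soma, and in single-end data at 1.39 and 0.942 against 1.52 FPKM. Tbr1 stood at 0.0663 and 0.607 FPKM in the fear conditioned and home cage dendrite supernatants against 0.496 FPKM in soma. In the fit, Nfia alone of the 6 tested members differed by more than 1 SE.

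Immunoprecipitates were then set against supernatants of the same place, with the soma and dendrite pulldowns serving both here and above. In dendrite, 2 of 2938 genes were called (0.0681%), both lower in immunoprecipitates, and neither is a member. Zfp238 was lower in every dendrite immunoprecipitate than in either dendrite supernatant, as were 18% of all genes (4.39% were higher in every one), with a log2 difference of -1.80 (SE 1.35, limma adjusted p = 1). Nfix was at 1.903 (SE 1.24), Bcl11b at 1.18 (SE 0.98), Nfia at -0.50 (SE 0.98), Mef2c at -0.35 (SE 1.32) and Neurod6 at 0.02 (SE 1.10), each overlapping between the fractions. Nfia ranged over 0.791 to 18.8 FPKM in the dendrite immunoprecipitates, against 5.37 and 9.04 FPKM in the dendrite supernatants. In soma, no gene was called (0% called, 28 at an unadjusted p under 0.05), with Mef2c at 1.91 (SE 1.77) and Neurod6 at 1.27 (SE 1.47), and the other tested members lay between -0.67 and 0.61. On the scaled level, Bcl11b was below the soma supernatant in all 4 soma immunoprecipitates, as were 17.4% of all genes (5.51% were above it in all 4). As deposited, the fear conditioned soma immunoprecipitates lay above it, at 0.845 and 0.782 against 0.754 FPKM. They also did in single-end data, at 3.095 and 1.985 against 1.523 FPKM as deposited.

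Markers of astrocytes were higher in dendrite, as Nfia and Nfix were in paired-end data. The summed scaled FPKM of 10 astrocyte markers was 86.7 to 225 in dendrite immunoprecipitates, against 2.40 to 55.9 in soma immunoprecipitates, and 215 and 267 in dendrite supernatants, against 19.8 in the soma supernatant. In the single-end run the sums overlapped, at 83.0 to 207 in dendrite and 4.99 to 186 in soma immunoprecipitates, the highest soma sum being that of home cage soma immunoprecipitate 1, while the supernatants had 294 and 343 in dendrite, against 40.8 in soma. In paired-end data all 10 were above 0 in some dendrite and in some soma immunoprecipitate, and the 7 tested had positive differences, with a median of 2.99. Between immunoprecipitates, oligodendrocyte markers had 2 positive and 2 negative differences, and the 1 microglia marker tested was negative. Between supernatants, all 9 astrocyte, 5 oligodendrocyte and 2 microglia markers tested were positive, at medians of 2.92, 2.76 and 2.00. Interneuron markers had 4 positive and 2 negative there. Slc1a2, the main astrocyte glutamate transporter, had 239 and 10.5 FPKM in fear conditioned and 31.0 and 49.6 FPKM in home cage dendrite immunoprecipitates, against 9.72 and 0.784 FPKM in fear conditioned and 2.74 and 0.590 FPKM in home cage soma immunoprecipitates. Aldh1l1, a folate enzyme of astrocytes, was at 1.30 FPKM in fear conditioned dendrite immunoprecipitate 1 and at 0 in the other dendrite immunoprecipitates, against 0.250 FPKM in fear conditioned soma immunoprecipitate 1 and 0 in the other soma immunoprecipitates. Gfap, the astrocyte intermediate filament, had 6.37 and 9.24 FPKM in fear conditioned and 0.118 and 0.0761 FPKM in home cage dendrite immunoprecipitates, against 0.0478 to 0.874 FPKM in soma immunoprecipitates. In paired-end data fear conditioned dendrite immunoprecipitate 2 had the highest Nfia and Nfix of the 4 and the lowest astrocyte sum, at 86.7. In single-end data it again had the highest scaled Nfia and Nfix of the 4, at 5.56 and 12.4. Its astrocyte sum there was 124.7, not the lowest, which was 83.0. The part of astrocyte RNA in the NFI values was not tested.

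A neuronal mRNA of dendrites moved with the comparison too. Camk2a, the kinase whose mRNA is known to travel into dendrites and whose promoter drives the transgene, had 263 and 702 FPKM in fear conditioned and 63.6 and 706 FPKM in home cage dendrite immunoprecipitates, against 38.3 and 109 FPKM in fear conditioned and 14.8 and 2.30 FPKM in home cage soma immunoprecipitates. In single-end data it had 112 and 450 FPKM in fear conditioned and 302 to 535 FPKM in home cage dendrite immunoprecipitates, against 12.4 to 128 FPKM in soma immunoprecipitates. As deposited, its dendrite and soma ranges overlapped in both runs. On the scale of the astrocyte sums they did not. There the lowest dendrite value was 66.5 against a highest soma value of 51.5 scaled FPKM in paired-end data. In single-end data these were 73.4 and 71.1. The part of Camk2a in the members' values was not tested.

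**Figure D3:**
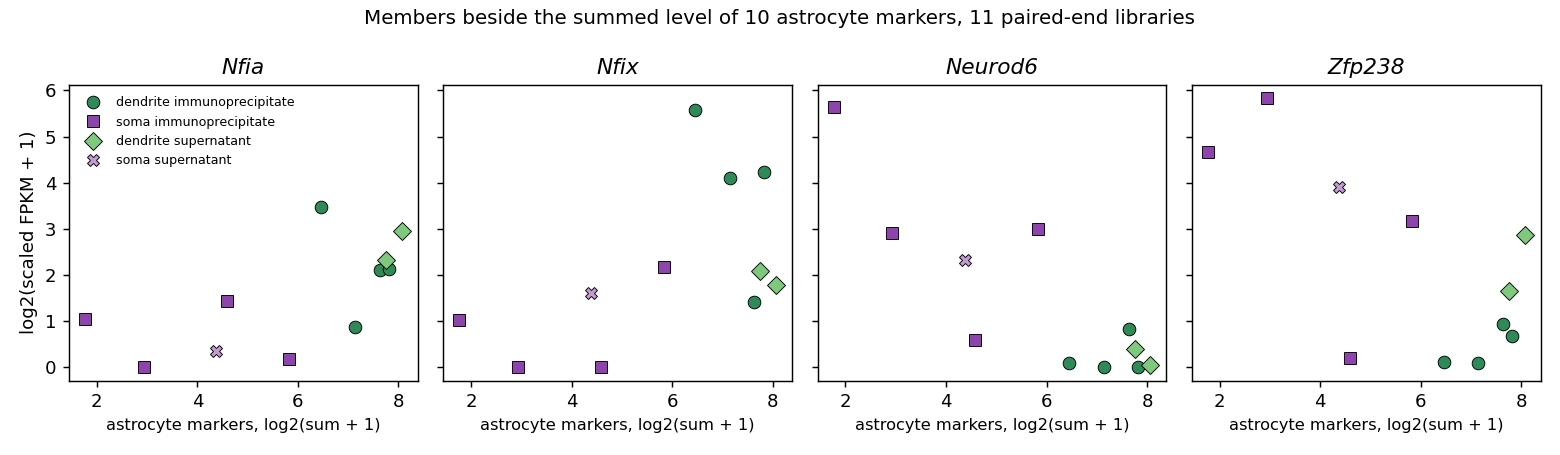
Scaled level of Nfia, Nfix, Neurod6 and Zfp238, as log2(scaled FPKM + 1), against the summed scaled FPKM of 10 astrocyte markers, as log2(sum + 1), in the 11 paired-end libraries; symbols mark dendrite and soma immunoprecipitates and supernatants. Dendrite libraries, with sums of 86.7 to 267, lie to the right of all soma libraries, with sums of 2.40 to 55.9. In single-end data, not drawn, the sums of dendrite and soma immunoprecipitates overlap.

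Fear conditioned and home cage libraries were compared within each place. In dendrite immunoprecipitates no gene was called (0% called, 96 at an unadjusted p under 0.05). Mef2c was above both home cage values in both fear conditioned libraries in paired-end data, as listed above, and in single-end data had 3.09 and 0.752 FPKM in fear conditioned against 0 in both home cage dendrite immunoprecipitates. Its log2 difference was 2.47 (SE 1.60, limma adjusted p = 0.944), and Neurod6, at 0.44 (SE 1.36), was likewise higher without overlap, as were 24.5% of all genes (8.61% were lower without overlap). In soma immunoprecipitates no gene was called either (0% called, 217 at an unadjusted p under 0.05). Neurod6 was at 2.96 (SE 1.36, adjusted p = 0.569), Nfix at 1.72 (SE 1.56) and Bcl11b at 0.63 (SE 1.23), all 3 higher without overlap, as were 33.4% of all genes (7.99% were lower without overlap). In single-end data Neurod6 had 1.65 and 21.8 FPKM in fear conditioned against 0.586 and 8.37 FPKM in home cage soma immunoprecipitates, which overlap. Single-end Nfix overlapped there too, at 1.59 and 2.01 against 6.59 and 0.137 FPKM. Bcl11b did not, at 3.095 and 1.985 against 0.4996 and 0 FPKM. In dendrite immunoprecipitates single-end Neurod6 had 3.198 and 0 FPKM in fear conditioned against 0 in both home cage libraries. The difference of the fear conditioning effect between dendrite and soma was called for no gene (0% called, 102 at an unadjusted p under 0.05), and among members lay between -2.51 for Neurod6 (SE 1.92) and 2.82 for Mef2c (SE 2.26), at an adjusted p of at least 0.716. No effect of fear conditioning on a member was thus detected with 2 libraries a group.

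The 2 measured parts of each mRNA did not run at one level. For Neurod2, whose parts are of near equal length (1567 coding and 1570 bases of the rest of the 3′ UTR), the 3′ UTR part was higher than the coding part in 10 of 11 libraries and lower in none. Its 3′ UTR part had 1.26 and 0.568 FPKM in fear conditioned and 0 and 2.43 FPKM in home cage dendrite immunoprecipitates, against 49.5 and 6.01 FPKM in fear conditioned and 1.77 and 0.0402 FPKM in home cage soma immunoprecipitates. In the supernatants it had 0.594 and 1.91 FPKM in fear conditioned and home cage dendrite against 6.75 FPKM in soma. In paired-end data both soma fear conditioned immunoprecipitates and the soma supernatant therefore stood above every dendrite library in the 3′ UTR part, and the 2 home cage soma libraries did not. The single-end run differed: this part had 0.405 and 0.726 FPKM in fear conditioned and 0 and 1.30 FPKM in home cage dendrite immunoprecipitates, against 0.802 and 6.47 FPKM in fear conditioned and 5.13 and 0.154 FPKM in home cage soma immunoprecipitates. It had 0.643 and 2.67 FPKM in the fear conditioned and home cage dendrite supernatants, against 23.6 FPKM in the soma supernatant. There fear conditioned soma immunoprecipitate 2, home cage soma immunoprecipitate 1 and the soma supernatant stood above every dendrite library, and fear conditioned soma immunoprecipitate 1 did not. In the fit to that part, Neurod2 was at -1.59 (SE 1.02, adjusted p = 0.616), dendrite minus soma. The median log2 ratio of the 3′ UTR part over the coding part, with 1 added to each FPKM, was 0.96 for Neurod2, beside a median of 0 over 3336 genes, of which 36.2% were above and 41.1% below 0. In single-end data the Neurod2 3′ UTR part was higher in 8 libraries and lower in 2.

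Neurod6 and Zfp238 showed the opposite order. The rest of the Neurod6 3′ UTR, 620 bases, was above 0 in 3 paired-end libraries only, all of soma, at 0.705 and 4.26 FPKM in the fear conditioned soma immunoprecipitates and 0.671 FPKM in the soma supernatant, and the same 3 libraries held it in single-end data, at 10.01, 4.25 and 13.2 FPKM. The coding part of Neurod6 was higher than its 3′ UTR part in 9 libraries and the 3′ UTR part in none. For Zfp238 the coding part was higher in 10 of 11 libraries, with a median log2 ratio of -1.95, and in 7 of 11 single-end libraries. Some values of its 3′ UTR part were far below what 1 read gives (down to 2.628e-10), so they do not stand for whole reads. The cause of these low values was not tested, and the counts of libraries include them. For Nfia the coding part was higher in 8 paired-end and 10 single-end libraries, over a 3′ UTR rest of 7443 bases. Bcl11b (9 libraries) and Tbr1 (8 libraries) had the 3′ UTR part higher in most paired-end libraries, and Nfib and Nfix had a median ratio of 0 there. In single-end data the 3′ UTR part of Bcl11b was higher in 5 libraries and lower in 5. That of Tbr1 was higher in 6 and lower in 3. The single-end median log2 ratio was -1.12 for Nfib and -0.58 for Nfix.

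**Figure D4:**
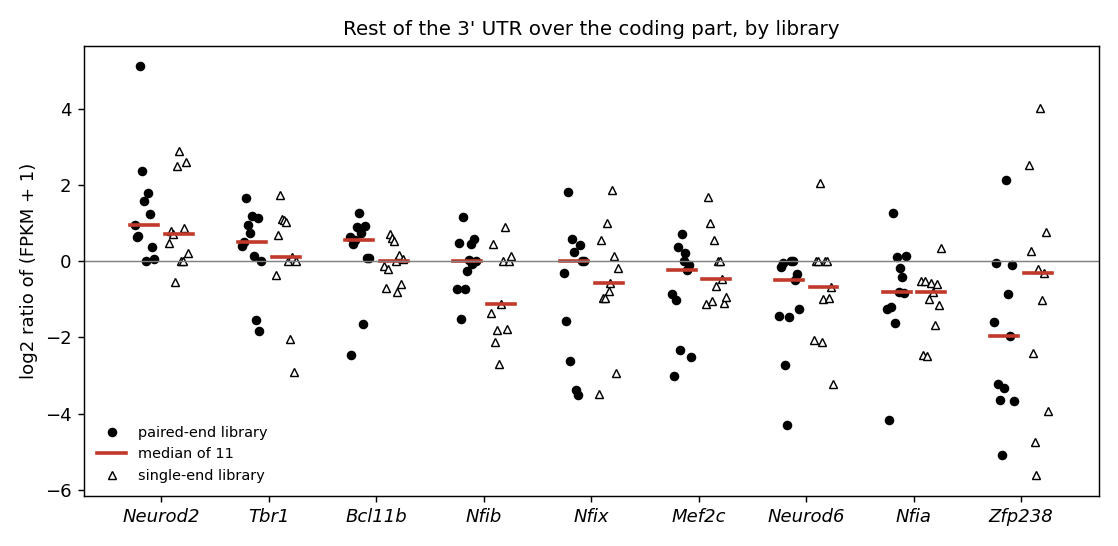
Log2 ratio of (FPKM + 1) in the rest of the 3′ UTR over the coding part of each member, one point for each of 11 paired-end (filled circles) and 11 single-end (open triangles) libraries, with the medians as red bars. Neurod2 lies at or above 0 in all paired-end libraries, and Zfp238 lies below 0 in 10 of them.

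Across the 11 paired-end libraries, the genes most like each member were sought by Pearson's r of log2(scaled FPKM + 1) among 630 genes, all of which share these libraries and their depth. Neurod6 was most like Chn1 (r = 0.864), Rmi1 (0.849) and Zfp238 (0.788), and the Neurod6 and Zfp238 pair held in single-end data, at 0.828. Zfp238 was most like Ywhah (0.960), Eif1 (0.842) and Ddx5 (0.838). Mef2c was most like Polr1d (0.835), JSAP2 (0.831) and Calm3 (0.826), and Bcl11b most like Magi2 (0.871), Dnajc5 (0.855) and 4930555I21Rik (0.844). Nfia was most like 2500003M10Rik (0.827), Setd3 (0.819) and Camk2a (0.817). Nfix was most like Dlg4 (0.910), Arf3 (0.880) and Arhgap21 (0.876). Several of these likenesses did not recur in single-end data, where r was -0.06 for Nfix with Dlg4, -0.16 for Nfix with Arf3, -0.30 for Mef2c with Calm3, 0.05 for Bcl11b with 4930555I21Rik and 0.23 for Nfia with Camk2a. Between NFI members the median r was 0.31 over 3 pairs, between pyramidal members -0.07 over 15 pairs, and between an NFI and a pyramidal member -0.19 over 18 pairs.

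Related factors and partners from lists chosen with these data known were mostly too low to test, and none was called in any comparison. A list of 41 pyramidal and cortical factors took in the members Neurod2, Neurod6, Zfp238 and Bcl11b. Of these 41, 8 were tested between dendrite and soma immunoprecipitates, with 2 positive and 6 negative differences. Their median was -1.02, beside -0.30 over all genes, with Zfp238 at -3.02, Neurod6 at -2.82 and Bcl11b at 1.00 among them. In the supernatant comparison, 7 were tested, with 1 positive and 6 negative and a median of -1.26, beside -0.03 over all genes. Neurod6 at -1.55, Zfp238 at -1.33 and Bcl11b at -0.72 were among these negatives. The members in these counts were chosen with such values known. Zeb2, a zinc finger homeobox repressor, had a median of 1.05 in dendrite and 5.65 scaled FPKM in soma immunoprecipitates, and 3.12 in dendrite supernatants against 7.33 in the soma supernatant. Bcl11a, the paralog of Bcl11b, had medians of 0.1003 in dendrite and 2.62 scaled FPKM in soma immunoprecipitates, and 0.286 in dendrite supernatants against 2.49 in the soma supernatant. In single-end data Bcl11a was highest in fear conditioned dendrite immunoprecipitate 2, at 10.89 scaled FPKM, and at 0 in the other dendrite immunoprecipitates. The soma immunoprecipitates there had 0.316 to 8.09 scaled FPKM. Lmo3, a LIM domain cofactor, had medians of 0.1204 in dendrite and 0.401 scaled FPKM in soma immunoprecipitates, and 0.426 against 4.86 in dendrite and soma supernatants. Zbtb20, a repressor of the Zfp238 class that specifies hippocampal CA1 identity, was about level, with medians of 8.36 in dendrite and 8.53 scaled FPKM in soma immunoprecipitates and 14.2 against 12.7 in dendrite and soma supernatants.

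Of 14 neuronal bHLH factors, 2 were tested between dendrite and soma immunoprecipitates, Neurod6 among them, and both were negative. Bhlhe40, an activity-responsive repressor, had medians of 0.131 in dendrite and 4.46 scaled FPKM in soma immunoprecipitates. Id2, an inhibitor of bHLH factors, was highest in dendrite supernatants, at 2.18 and 9.996, against 0.180 scaled FPKM in the soma supernatant, and Id3 and Id4 were at 0 in the soma supernatant. Tcf4 and Tcf12, the E protein partners with which Neurod factors pair, both had negative differences, with Tcf4 medians of 2.18 in dendrite and 4.27 scaled FPKM in soma immunoprecipitates, while Tcf3 averaged 0.0295 over all 11 libraries. Mef2d was the most abundant other MEF2 gene, at medians of 1.54 in dendrite and 1.66 scaled FPKM in soma immunoprecipitates, followed over 11 libraries by Mef2a at a mean of 0.590 and Mef2b at 0.0662. Hdac5, a histone deacetylase that represses MEF2 targets, had medians of 0.763 in dendrite and 0.798 scaled FPKM in soma immunoprecipitates, and Hdac4, Hdac9 and Hdac7 averaged 0.729, 0.246 and 0.116 over 11 libraries. Nfic, the remaining NFI gene, averaged 0.0567 scaled FPKM and was above 0 in 5 libraries in paired-end data. In single-end data Nfic was above 0 in 4 libraries, with 10.09 and 3.24 FPKM in the fear conditioned and home cage dendrite supernatants. Cask, a partner of Tbr1, averaged 0.0919, and Eomes, the T-box relative of Tbr1, was listed at 0 in every library of both runs.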

How the data were processed

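The members and gene lists were chosen with earlier results of these data known. The values are FPKM that the authors deposited per gene for the coding part and the rest of the 3′ UTR; per the submitters' processing notes, CASAVA 1.9, STAR 2.1.1d and Cufflinks 2.0.2 were used with mm9. Per the labels' protocols, cDNA was amplified with the Nugen Ovation system, treated with single strand nuclease and made into TruSeq DNA libraries with gel size selection; amplification from little RNA can widen the spread of low mRNAs. FPKM are not counts, and depth was estimated from the spacing of low values (89.1 to 96.4% within 0.15 reads of a whole number). Columns of both tables were matched to samples by their names.

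Main values came from the paired-end table. Libraries were scaled by the median ratio over genes above 0 in all libraries (870 genes for 8 immunoprecipitates, 765 for 11 libraries). A minimum mean of 1 and a pseudocount of 1 were applied, and log2 values were tested with limma 3.58.1 (trended empirical Bayes, two-sided) in R 4.3.3. The fit was run on simulated data with normal spread, in which genes were unchanged or changed by more than any member differed. Differences of the members' size were not simulated. A fold on the log2(FPKM + 1) scale understates the change of low genes. The alternatives were other pseudocounts, minimums, scalings, the single-end table, the 3′ UTR part, robust moderation, the replicate block and each library left out. All members were named, with the 3 genes most like each tested member, and of each list the 4 other genes of highest mean. CDS sequences came from GENCODE M21.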

Additional observations from a re-analysis of the deposited data

Results flagged for a closer look

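In 4 of 18 groups of 4 immunoprecipitates, 1 library stood far from the other 3 by Dixon's criterion, the gap to the nearest library as a share of the group's range, a criterion that flags about 1 in 20 groups of normal values by chance. These groups are skewed and several hold values of 0, so the number of such groups is a description and no test against chance. Values are scaled FPKM of the coding part in paired-end data. Neurod6 was at 59.91 in fear conditioned soma immunoprecipitate 2, against 0.4227 to 7.672 in the other soma immunoprecipitates. Neurod6 was also at 0.7466 in fear conditioned dendrite immunoprecipitate 1, against 0 to 0.06078 in the other dendrite immunoprecipitates. Neurod2 was at 0.06864 in that same library and at 0 in the other dendrite immunoprecipitates, with its gap fixed by those values of 0. Tbr1 was at 1.677 in home cage dendrite immunoprecipitate 2, against 0 to 0.07281 in the other dendrite immunoprecipitates.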

How the results depend on the processing

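No member was called in any of the 847 member fits over comparisons and alternatives (lowest adjusted p = 0.139), which leave out Neurod2, Tbr1 and Nfib wherever they were under the minimum. Between dendrite and soma immunoprecipitates 5 of 6 members kept their sign under every alternative in which they passed the minimum, Mef2c being the exception. That comparison called 0 genes, and 1 with FPKM as deposited, 1 with upper quartile scaling and 1 in the single-end table. Fear conditioned against home cage soma called 0, 1 with FPKM as deposited and 0 to 135 with 1 library left out (135 without fear conditioned soma immunoprecipitate 1, 121 without number 2, 102 without home cage soma immunoprecipitate 2); there a single library stands for its group and is assumed to vary like the others. The difference of the fear conditioning effect called 1 in the 3′ UTR part. Dendrite immunoprecipitates against supernatants called 2, and 1 with a pseudocount of 0.1 or of 5 or a minimum of 5, 376 with no minimum, 10 single-end, 0 in the 3′ UTR part, 1 with the replicate block and 0 to 2 with 1 library left out (0 without home cage dendrite supernatant 2). Soma immunoprecipitates against the supernatant called 0, and 1 with a pseudocount of 0.1, a minimum of 5 or the 3′ UTR part, 935 with no minimum and 10 single-end. Dendrite against soma supernatants called 0, and 924 with no minimum and 6 single-end. The cause of these moves was not tested. Same-numbered immunoprecipitates correlated at -0.02 to 0.06 in their deviations from group means. Supernatants were not compared with same-numbered immunoprecipitates. With 2 libraries a group, such an r cannot settle whether same-numbered samples were paired. The replicate block changed no other call. Values near 0 are limited by depth.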
